A study of Mus musculus with 8 samples.

Results

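The Hox gene clusters of the mouse were described in maps of 4 histone modifications from tumour isografts. The members were the protein-coding genes of GENCODE vM1 on the mm9 assembly whose symbol is Hox followed by a cluster letter from a to d and a paralogue number, which gave 39 genes of 22228. Of these, 11 lie in Hoxa (chr6:52105366-52210874, read on the minus strand), 10 in Hoxb (chr11:96055630-96229570), 9 in Hoxc (chr15:102751534-102867274) and 9 in Hoxd (chr2:74506367-74603200, all 3 read on the plus strand). Promoters span 1 kb before and 0.5 kb after the transcription start site (TSS). By the CpG content of this region, 27 members had high-CpG promoters (HCPs, 11990 in the genome), 12 had intermediate ones (ICPs, 3925) and 0 had low ones (LCPs, 6313).

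Hox genes encode homeodomain transcription factors that assign positional identity along the body axis. Within a cluster the order of the genes follows the order in which they are used along that axis, from the anterior paralogues to the posterior ones. Outside the places where they are used, the clusters are a well known target of Polycomb complexes, which deposit H3K27me3, whereas Trithorax-type complexes deposit H3K4me3. A promoter that carries both marks is called bivalent. H3K9ac is found at active promoters and H3K36me3 in transcribed gene bodies.

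The tumours were subcutaneous isografts in the right flank of female C57BL/6J mice of several weeks of age. They were grown from Lewis lung carcinoma (LLC) cells, a murine lung tumour line of C57BL origin. LLC-NR is the line sensitive to VEGF-Trap, a decoy receptor that binds VEGF. LLC-R is the resistant line, obtained by repeated passage of tumours under VEGF-Trap in mice. For each line and each mark, H3K4me3, H3K9ac, H3K27me3 and H3K36me3, there was 1 library, so 8 in all. No difference between the lines has a replicate check, and line and library cannot be told apart. The isografts were dissected whole, so tumour cells, host vessels, stroma and leukocytes were sequenced together, and a mark on fewer cells cannot be told apart from less of the mark per cell.

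The values are numbers of peaks. Each deposited peak is 147 bp wide, the length of DNA in a nucleosome, carries no height, and does not overlap another peak of its library. At most 11 such peaks fit in a promoter and 35 in a 5-kb tile, so a number of peaks levels off where a mark is dense. A library held 5660458 to 9101721 peaks, of which 1391 (LLC-NR H3K36me3) to 2142 (LLC-R H3K27me3) lay in the 4 clusters. All intervals below are 95% intervals that cover counting error only. Those on numbers of peaks treat peaks as independent, whereas peaks of 1 library cannot overlap, so they can be too wide. Those on shares of Hox promoters treat the promoters as independent, although they lie side by side in 4 clusters and share their libraries. They measure no spread between replicates. The SD beside a mean is the spread over genes or tiles of 1 library.

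Hox promoters held more H3K27me3 than the mean promoter in both lines. In LLC-NR, the 39 promoters held 6.38 ± 0.99 H3K27me3 peaks (SD, n = 39), against 4.56 ± 1.86 over all promoters and 4.68 ± 1.61 over HCPs. The ratio to all promoters was 1.4 (1.23 to 1.59). In LLC-R, they held 6.46 ± 0.82 peaks, against 5.46 ± 1.71 over all promoters, a ratio of 1.18 (1.04 to 1.34).

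No member was without H3K27me3 in either line, but promoters with 0 peaks were rare. They made up 4.54% (LLC-NR) and 3.62% (LLC-R) of all promoters and 0.98% and 0.66% of HCPs. The lowest Hox promoter held 5 H3K27me3 peaks in both lines, the median 6 and the highest 8. In LLC-NR, 39 of 39 members were at or above the mean of all promoters, where 56.6% of all promoters were. In LLC-R it was 36 of 39, against 58.8% of all promoters, and the 3 below the mean were Hoxa4, Hoxa13 and Hoxb5 with 5 peaks each. The SD over the Hox promoters was smaller than over HCPs in both lines.

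**Figure D1:**
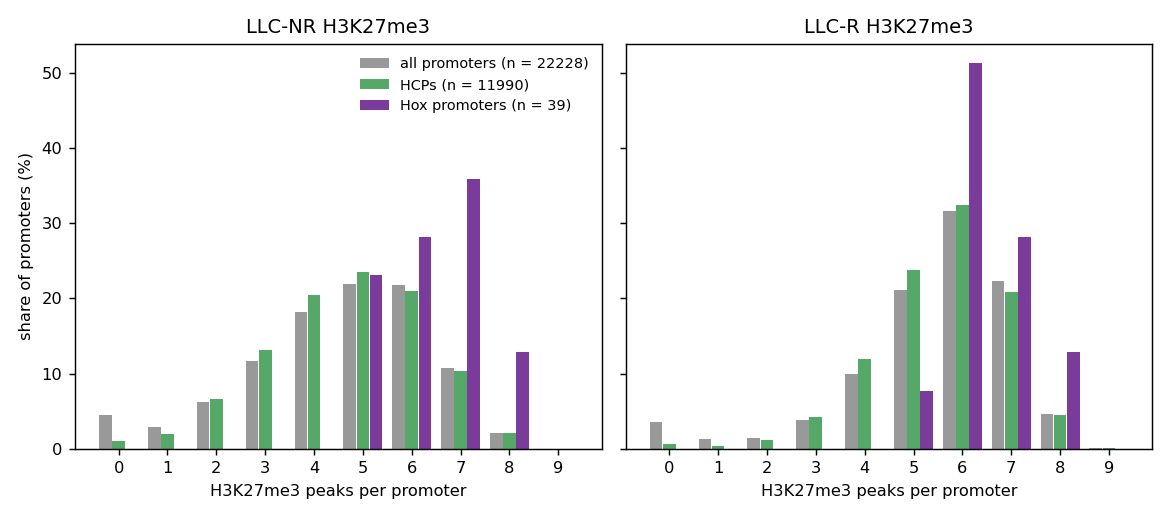
Share of promoters (%) with each number of H3K27me3 peaks per promoter in LLC-NR (left) and LLC-R (right), for all 22228 promoters (grey), 11990 HCPs (green) and 39 Hox promoters (purple). The Hox bars start at 5 peaks in both lines, whereas the other sets reach down to 0, where at most 4.54% of a set lies.

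The other marks differed less from all promoters in LLC-NR, whereas in LLC-R the ratio of H3K4me3 was close to that of H3K27me3. H3K4me3 averaged 5.59 ± 1.43 (LLC-NR) and 5.33 ± 1.08 peaks (LLC-R), which was 1.14 (0.99 to 1.30) and 1.16 (1.01 to 1.33) times the mean of all promoters. The members at or above that mean numbered 33 (63.9% of all promoters) and 29 (58.9%). Against HCPs, the ratios were 0.92 (0.80 to 1.05) and 0.95 (0.83 to 1.09). Both intervals include 1, but they can be too wide. Whether H3K4me3 differed between Hox promoters and HCPs was therefore not settled. H3K9ac was at 1.05 (0.91 to 1.19) and 1.06 (0.92 to 1.21) times the mean of all promoters, with 26 (62.3% of all promoters) and 31 members (70.5%) at or above it. H3K36me3 was at 1.14 (0.96 to 1.34) and 1.13 (0.99 to 1.29), with 22 (43.4%) and 33 members (69.7%).

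**Figure D2:**
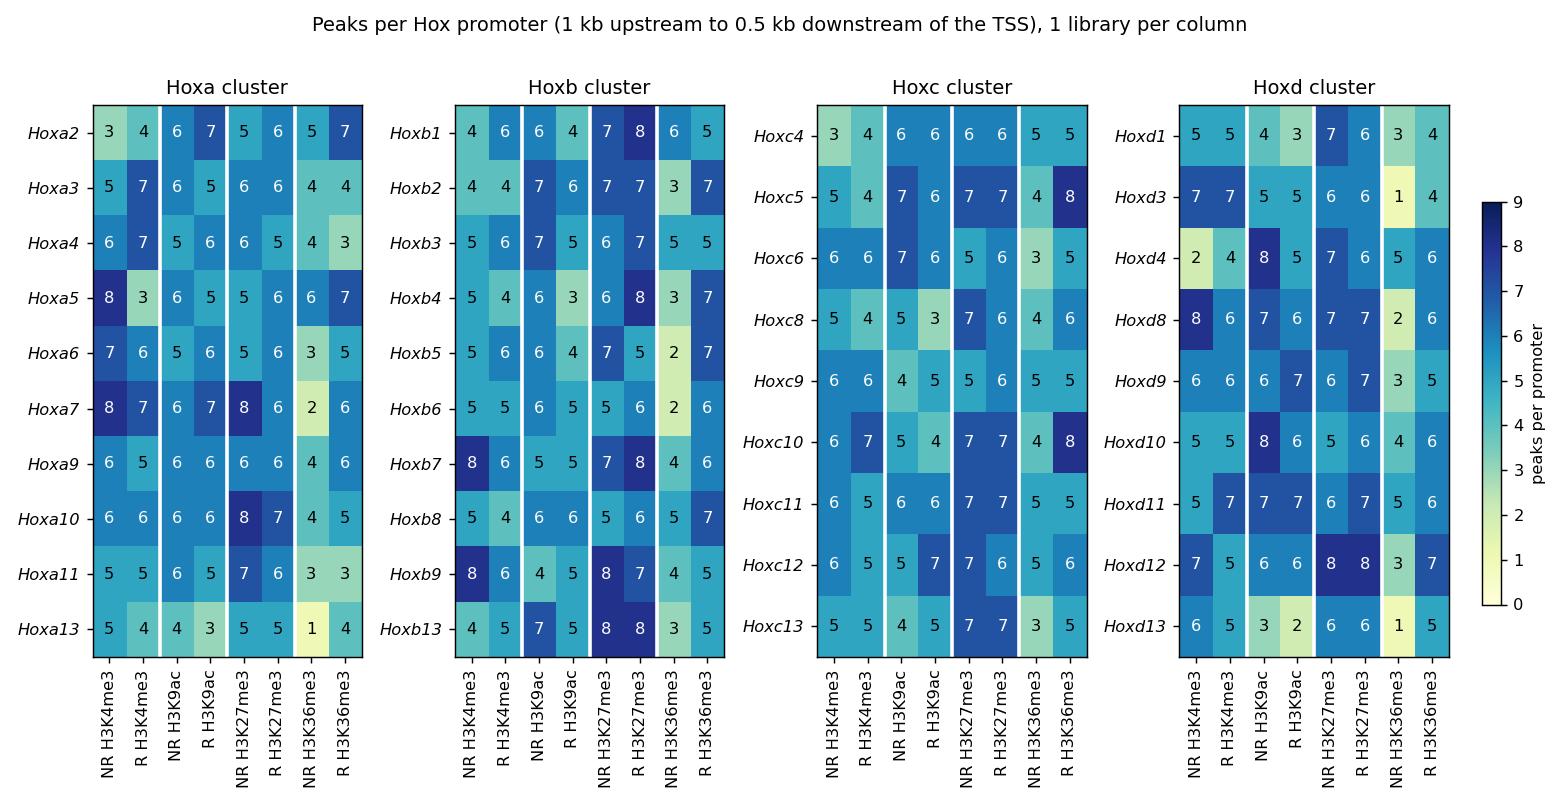
Number of peaks in each of 38 Hox promoters, 1 panel per cluster with genes in paralogue order and 1 column per library (NR, LLC-NR; R, LLC-R); colour runs from 0 to 9 peaks. The H3K27me3 columns lie between 5 and 8 throughout, whereas H3K4me3 runs from 2 to 8 and LLC-NR H3K36me3 from 1 to 6.

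Within each cluster, the promoters richest in H3K4me3 over both lines were those of Hoxa7, Hoxb7, Hoxc10 and Hoxd3. Hoxb9 held as many as Hoxb7, and Hoxd8 as many as Hoxd3, and ties went to fewer H3K27me3 peaks and then to the lower paralogue number. The 300 bases upstream of the TSSs of Hoxa7, Hoxb7 and Hoxd3 are shown because they are where the active and the repressive mark were compared base by base. They are from mm9, 5′ to 3′ on the strand of the gene, at chr6:52171854-52172153 (minus strand) for Hoxa7, chr11:96145271-96145570 for Hoxb7 and chr2:74549686-74549985 for Hoxd3 (plus strand). Capitals mark the bases that lay under an H3K4me3 peak and an H3K27me3 peak in both lines, which means in 4 of 4 libraries.
Hoxa7: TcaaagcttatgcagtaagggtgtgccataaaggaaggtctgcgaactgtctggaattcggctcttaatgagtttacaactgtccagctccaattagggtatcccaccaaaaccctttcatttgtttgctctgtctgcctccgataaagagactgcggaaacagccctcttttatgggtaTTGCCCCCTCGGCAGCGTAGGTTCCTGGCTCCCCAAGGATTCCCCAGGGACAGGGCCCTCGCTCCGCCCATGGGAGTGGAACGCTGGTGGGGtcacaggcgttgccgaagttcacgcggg
Hoxb7: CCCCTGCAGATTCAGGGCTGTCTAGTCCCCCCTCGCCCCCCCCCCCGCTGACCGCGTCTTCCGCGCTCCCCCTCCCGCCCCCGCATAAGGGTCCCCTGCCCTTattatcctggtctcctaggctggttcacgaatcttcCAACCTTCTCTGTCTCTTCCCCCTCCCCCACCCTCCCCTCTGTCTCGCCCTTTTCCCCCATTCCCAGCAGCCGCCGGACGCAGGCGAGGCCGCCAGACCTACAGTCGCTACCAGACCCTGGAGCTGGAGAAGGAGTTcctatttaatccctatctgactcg
Hoxd3: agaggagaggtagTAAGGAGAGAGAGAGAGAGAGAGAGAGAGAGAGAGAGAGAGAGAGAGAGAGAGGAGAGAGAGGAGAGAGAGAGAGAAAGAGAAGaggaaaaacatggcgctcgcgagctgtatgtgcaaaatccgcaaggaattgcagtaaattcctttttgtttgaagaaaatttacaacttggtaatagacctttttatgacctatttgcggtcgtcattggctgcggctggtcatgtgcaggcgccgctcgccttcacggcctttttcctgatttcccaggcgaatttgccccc

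The overlap of the marks was largest upstream of Hoxb7, with 240 of 300 bases in capitals, against 93 for Hoxa7 and 84 for Hoxd3. Upstream of Hoxb7, an H3K4me3 peak was centred 98 bp before the TSS in LLC-NR and 88 bp before it in LLC-R, and an H3K27me3 peak 97 bp before it in each line. This stretch also holds 94 bases of an exon of Hoxb8, since the annotated TSS of Hoxb7 lies inside that gene. The Hoxd3 stretch had the lowest G+C content, 48.3%, and Hoxb7 the highest, 64.0%. CpG dinucleotides numbered 13, 17 and 12 in the order listed. Shared bases show that peaks were called at the same place in separate libraries and not that the same nucleosome carried both marks.

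Each of the 4 promoters richest in H3K4me3 held both marks in each line, as did most promoters. Promoters with 0 H3K4me3 peaks made up 4.85% (LLC-NR) and 4.87% (LLC-R) of all, and those with 0 H3K27me3 peaks 4.54% and 3.62%. Hoxa7 held 8 and 7 H3K4me3 peaks and 8 and 6 H3K27me3 peaks, given here and below for LLC-NR before LLC-R. Hoxb7 held 8 and 6 H3K4me3 peaks and 7 and 8 H3K27me3 peaks. These are paralogues of group 7, which act in the trunk. Hoxc10, which acts in the lumbar region, held 6 and 7 H3K4me3 peaks and 7 in each line for H3K27me3. Hoxd3, an anterior gene, held 7 H3K4me3 and 6 H3K27me3 peaks in each line. H3K36me3 at Hoxd3 was low in LLC-NR, with 1 peak against 4 in LLC-R.

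The promoters with the fewest H3K4me3 peaks were those of Hoxa2, Hoxb2, Hoxc4 and Hoxd4, all of paralogue groups 2 and 4. Hoxa2, which patterns the second branchial arch, held 3 H3K4me3 peaks in LLC-NR versus 4 in LLC-R, and Hoxb2 held 4 in each. Hoxc4 held 3 and 4. Hoxd4 held 2 and 4, the lowest value of the family, beside 8 and 5 H3K9ac peaks. By paralogue group, groups 2 and 4 were lowest in H3K4me3 in LLC-NR, with means of 3.5 (n = 2) and 4.0 (n = 4) peaks per promoter, and group 7 highest with 8.0 (n = 2). In LLC-R, group 2 was again lowest, at 4.0. Of these 4 promoters, those of Hoxb2, Hoxc4 and Hoxd4 are ICPs and that of Hoxa2 is an HCP.

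H3K27me3 did not follow the same order. Its richest promoters were those of Hoxa10, Hoxb13, Hoxc5 (tied with Hoxc10, Hoxc11 and Hoxc13) and Hoxd12. Hoxb13, the posterior gene of Hoxb used in the tail bud and prostate, held 8 peaks in each line, and Hoxd12, a gene of limb patterning, held 8 in each. Hoxa10, which acts in the uterus and in blood cells, held 8 and 7, and Hoxc5 held 7 and 7. The poorest were Hoxa13 with 5 and 5 and Hoxb6, Hoxc6 and Hoxd10 with 5 in LLC-NR versus 6 in LLC-R (Hoxb8 and Hoxc9 held the same numbers), which are still above the LLC-NR mean of all promoters. Anterior (groups 1 to 3, n = 8), central (groups 4 to 8, n = 15) and posterior (groups 9 to 13, n = 16) members averaged 6.25, 6.2 and 6.62 H3K27me3 peaks in LLC-NR, and the same order gave 6.5, 6.27 and 6.62 in LLC-R.

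Hoxa13 and Hoxd13, which act in digits and the genital tubercle, stood low for H3K9ac in both lines and for H3K36me3 in LLC-NR. In LLC-NR, H3K9ac numbered 4 peaks at Hoxa13 and 3 at Hoxd13, and H3K36me3 1 at each. In LLC-R, H3K9ac numbered 3 and 2 and H3K36me3 4 and 5. The mean of group 13 (n = 4) was the lowest of the paralogue groups for H3K9ac in both lines, with 4.5 and 3.75 peaks per promoter. In LLC-NR it was also the lowest for H3K36me3, with 2.0. The group was not low throughout, since Hoxb13 held 7 and 5 H3K9ac peaks and Hoxc13 4 and 5.

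A promoter was called bivalent when H3K27me3 and at least 1 of H3K4me3 and H3K9ac were at or above the mean of all promoters of their library, active when only the latter held and repressive when only the former did. In LLC-NR, 39 of 39 Hox promoters were bivalent (91.0% to 100%), where 48.5% of all promoters and 52.2% of HCPs were. Of these 39, 33 reached the mean of H3K4me3 (63.9% of all promoters). The others, among them Hoxa2 and Hoxd4, were bivalent through H3K9ac alone. In LLC-R, 34 of 39 were bivalent (72.6% to 95.7%), against 53.1% of all promoters. The 5 others were Hoxa4 and Hoxb5 (active, 2 of 39 against 28.3% of all promoters), Hoxb4 and Hoxc8 (repressive, 2 of 39 against 5.71%) and Hoxa13 (no mark at the mean). In LLC-NR, active promoters made up 29.8% and repressive ones 8.17% of all, with 0 Hox genes in either. Each of the 5 was 1 peak short of the mean in H3K27me3, in H3K4me3 or in both. Hoxa4 and Hoxb5 held 5 H3K27me3 peaks in LLC-R, where the mean was 5.46. Hoxb4 and Hoxc8 held 4 H3K4me3 peaks there, where the mean was 4.61, and 3 H3K9ac peaks, where it was 4.97. Hoxa2, Hoxa5, Hoxb2, Hoxb8, Hoxc4, Hoxc5 and Hoxd4 were below the mean of H3K4me3 in LLC-R and bivalent there through H3K9ac alone. With the means of HCPs as thresholds, 30 and 26 members were bivalent, in LLC-NR and LLC-R, where 42.0% and 42.8% of HCPs were.

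The density of H3K27me3 around the Hox TSSs lay above that of HCPs. From the TSS to 1 kb upstream, the 39 genes held 4.36 H3K27me3 peaks per kb in LLC-NR versus 4.46 in LLC-R, against 3.0 and 3.71 at HCPs. From 1 to 3 kb downstream, they held 4.22 and 4.36 per kb, against 2.76 and 3.8. In the 200 bp before the TSS, the Hox genes held 3.72 per kb in LLC-NR (29 peaks) and 4.62 in LLC-R (36 peaks), against 2.76 and 3.25 at HCPs. H3K4me3 reached 3.82 and 3.69 per kb in the 1 kb after the Hox TSSs, against 4.22 and 4.01 at HCPs. From 1 to 3 kb upstream it held 3.29 and 3.19 per kb, against 3.33 and 3.05. In the 200 bp before the TSS it was higher at the Hox genes, with 4.49 and 4.23 per kb (35 and 33 peaks) against 3.85 and 3.44 at HCPs.

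**Figure D3:**
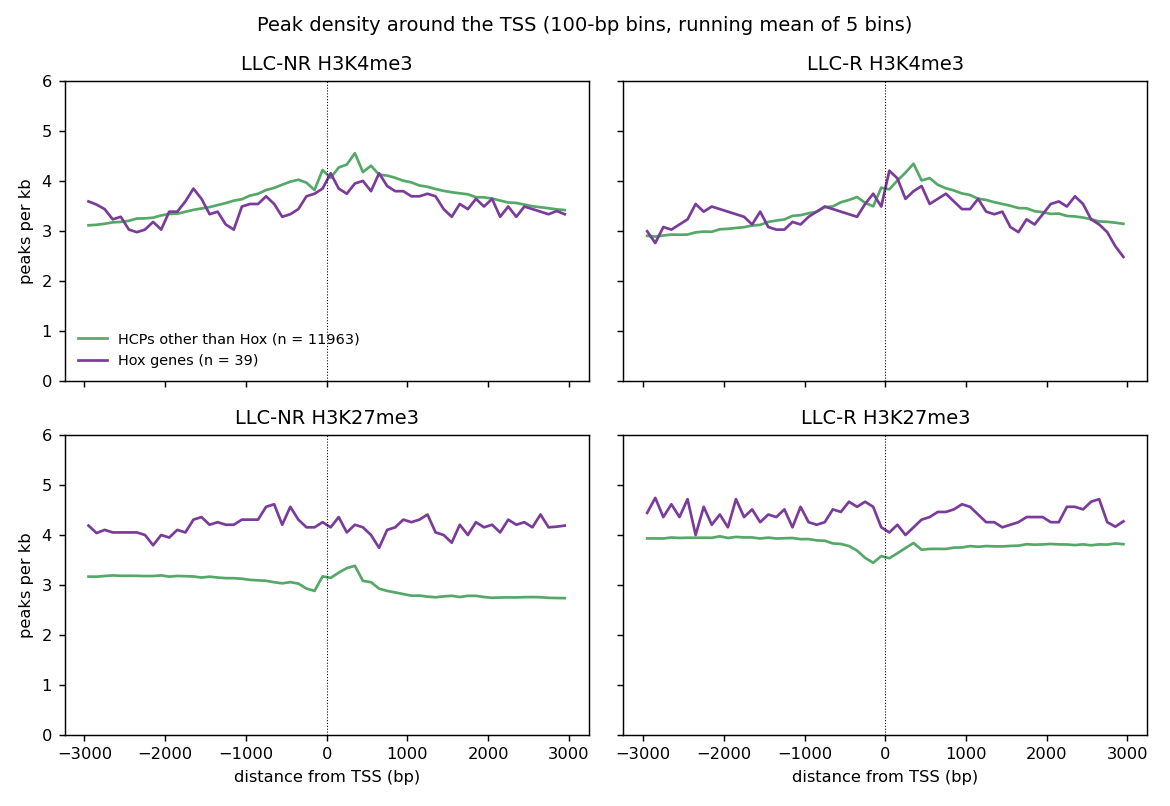
Peaks per kb (y axis) against distance from the TSS in bp (x axis) for H3K4me3 (top) and H3K27me3 (bottom) in LLC-NR (left) and LLC-R (right), as running means of 100-bp bins, for 39 Hox genes (purple) and 11963 HCPs of other genes (green). H3K27me3 lies above the HCP line over the whole 3 kb on each side, whereas H3K4me3 of the 2 sets lies close together.

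The same contrast held over the gene bodies. Hox genes are short, with a median body of 4.06 kb against 15.5 kb over all genes. Their bodies held 4.15 ± 0.36 H3K27me3 peaks per kb in LLC-NR and 4.37 ± 0.31 in LLC-R (SD, n = 39), which was 1.52 (1.44 to 1.61) and 1.23 (1.17 to 1.30) times the mean over all genes. The bodies of Hoxa3 and Hoxd3, of 49.98 and 36.35 kb, hold the TSSs of neighbouring Hox genes, so members share some of these peaks. The body intervals are those of the summed peaks, in which long genes count most, and not those of a mean over genes. A limit close to 1 is therefore not read as a difference.

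H3K36me3, the mark of transcribed bodies, was at 1.0 (0.94 to 1.07) times the mean over all genes in LLC-NR and 1.07 (1.01 to 1.14) times in LLC-R. Per gene it ran from 1.62 per kb at Hoxc12 to 4.24 at Hoxa2 in LLC-NR, and from 2.88 at Hoxa4 to 4.51 at Hoxc10 in LLC-R. H3K4me3 was at 1.35 and 1.29 times the mean over whole bodies but at 1.15 in each line from 0.5 to 3 kb downstream of the TSS, a stretch equally placed in short and long genes. H3K9ac was at 1.08 (1.02 to 1.14) and 1.03 (0.97 to 1.09) times the mean. By rank among all genes, the median percentile of the members was 43.7 and 38.9 for H3K9ac and 42.8 and 49.1 for H3K36me3. A ratio to the mean at or above 1 thus does not place the typical Hox body above the median gene.

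The clusters were then compared with their surroundings in 5-kb tiles, 98 of them inside the clusters and 160 within 100 kb on either side. The tile of the Hoxa13 TSS, with 19 and 16 H3K4me3 peaks, lies mostly outside Hoxa and counts as flank. H3K4me3 was denser inside. It numbered 16.2 peaks per tile inside and 14.6 in the flanks in LLC-NR, a ratio of 1.11 (1.04 to 1.18). In LLC-R it numbered 15.5 and 13.5, a ratio of 1.15 (1.08 to 1.23). The genome averaged 11.1 in each line. Tiles that hold the TSS of an HCP outside the Hox genes averaged 18.1 (LLC-NR) and 16.8 (LLC-R), which is above the cluster tiles.

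H3K27me3 showed no such step in the number of peaks at the cluster borders. It numbered 20.6 peaks per tile inside and 20.1 outside in LLC-NR, a ratio of 1.03 (0.97 to 1.08), and 21.8 and 21.5 in LLC-R, a ratio of 1.01 (0.96 to 1.07). Both the clusters and their flanks were well above the genome means of 14.2 and 17.8. They were also above the 15.2 and 19.2 of tiles that hold the TSS of an HCP. In LLC-NR, 54 of 98 cluster tiles and 84 of 160 flank tiles reached 21 peaks, where 10.4% of all tiles of the genome did. In LLC-R, 35 and 41 reached 23 peaks, where 7.88% did.

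Over the genome, all 8 libraries held more peaks in tiles of 50 to 55% G+C than in tiles of 35 to 40%. Of the 98 cluster tiles, 45 had 45 to 50% G+C and 36 had 50 to 55%. Among tiles of 45 to 50% G+C, the 45 cluster tiles averaged 20.6 H3K27me3 peaks in LLC-NR against 15.9 in 91283 tiles of the genome, and 21.8 against 19.2 in LLC-R. For H3K4me3 it was 16.0 against 12.03 and 15.4 against 12.3. For H3K9ac and H3K36me3 in LLC-NR the values lay closer, at 20.2 against 18.7 and 14.2 against 13.2. Among tiles of 50 to 55% G+C, H3K9ac was lower in the 36 cluster tiles than in the genome. It averaged 19.1 against 19.8 peaks in LLC-NR and 17.8 against 18.3 in LLC-R. H3K36me3 there was at 13.9 against 13.1 and 19.3 against 19.0. The part of G+C content in the level of a mark was not tested further.

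**Figure D4:**
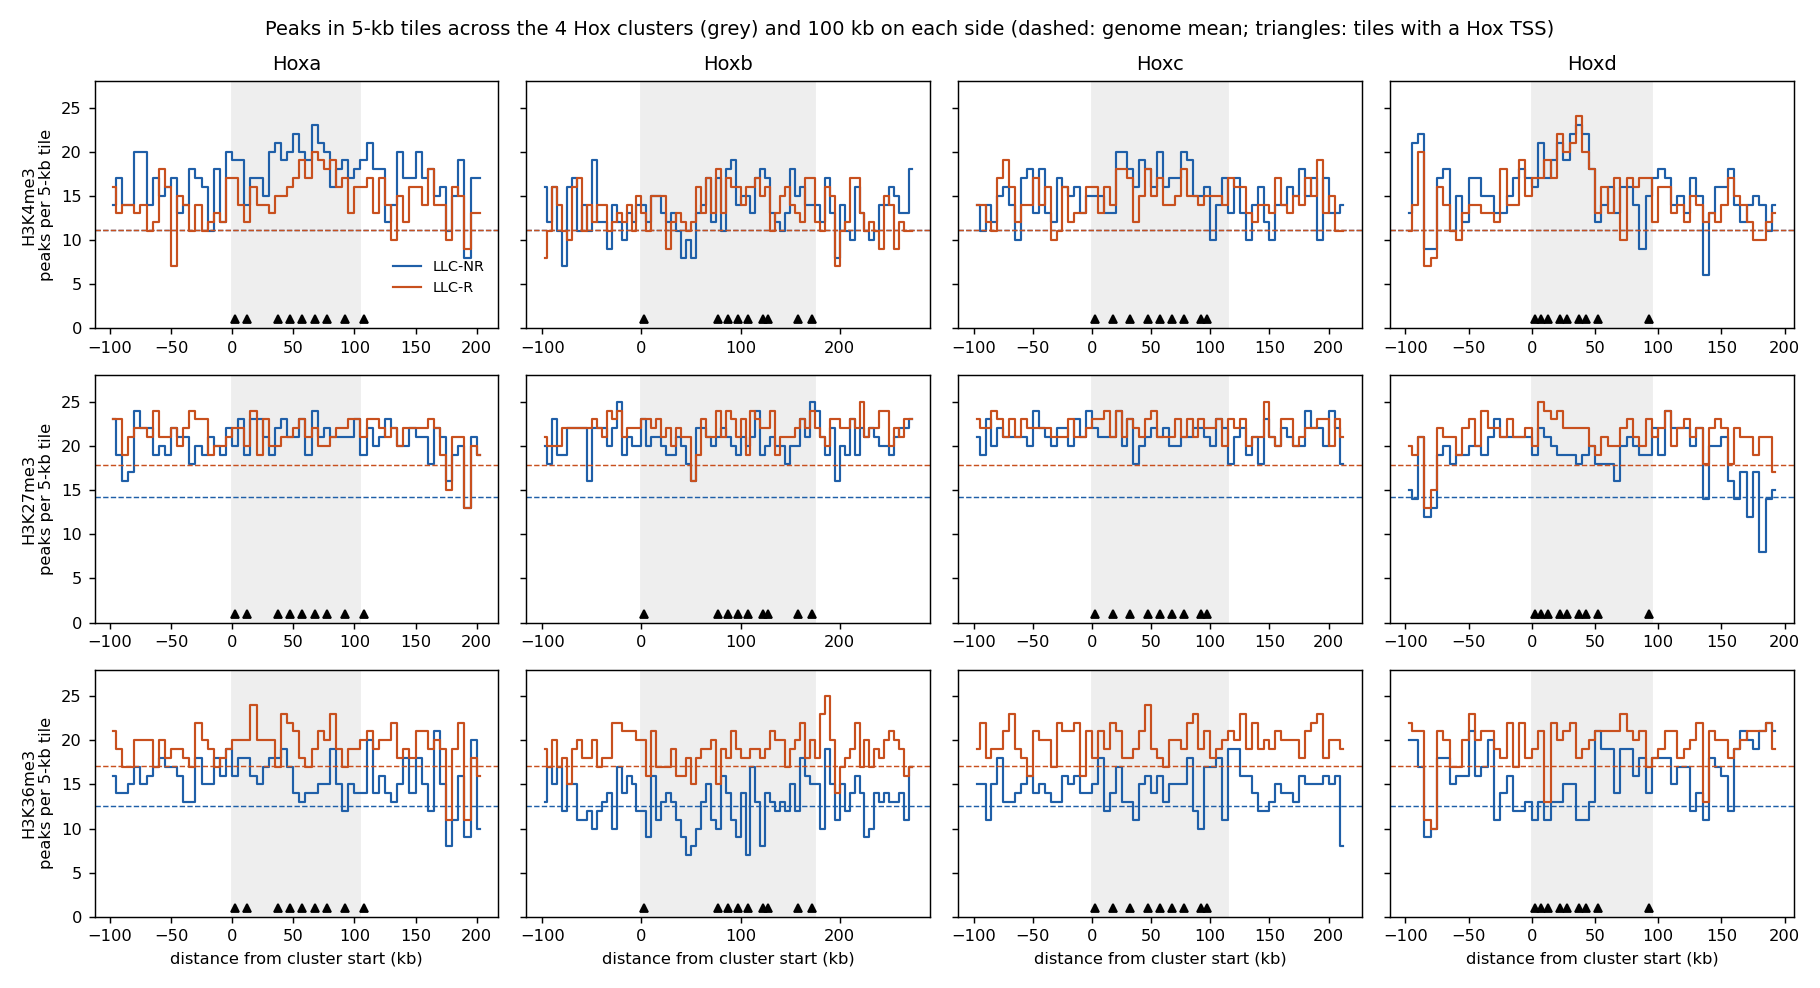
Peaks per 5-kb tile (y axis) of H3K4me3 (top), H3K27me3 (middle) and H3K36me3 (bottom) against distance in kb from the cluster start on the assembly, which is the anterior end for Hoxa and the paralogue 13 end for the others. Grey marks the cluster, triangles the tiles with a Hox TSS, dashed lines the genome means, blue LLC-NR and orange LLC-R. H3K4me3 reaches 23 peaks per tile inside Hoxa and 24 inside Hoxd, whereas H3K27me3 averages between 18.5 and 22.2 in each cluster and each set of flanks.

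H3K4me3 was not spread evenly over the clusters. Tiles with a Hox TSS (n = 35) averaged 17.6 peaks in LLC-NR versus 16.8 in LLC-R, against 15.3 and 14.8 in the 63 cluster tiles without one, whereas H3K27me3 averaged 20.7 and 22.0 with a TSS and 20.6 and 21.7 without. The tiles richest in H3K4me3 were those of Hoxa7 (23 and 20 peaks) and Hoxd8 (23 and 24). In LLC-NR, the longest run of tiles with at least 18 peaks was 50 kb long in Hoxa, 35 kb in Hoxd, 15 kb in Hoxc and 10 kb in Hoxb, where 5.504% of all tiles of the genome reached 18. In LLC-R, the longest run with at least 17 peaks was 50 kb in Hoxd and 35 kb in Hoxa, where 6.49% of tiles reached 17.

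Over the 98 cluster tiles, the H3K4me3 numbers of LLC-NR and LLC-R were related with a Spearman rho of 0.59. The tiles share the base composition and mappability of the place, so the value is a description of the pattern. For H3K27me3 it was 0.39, for H3K9ac 0.32 and for H3K36me3 0.53.

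**Figure D5:**
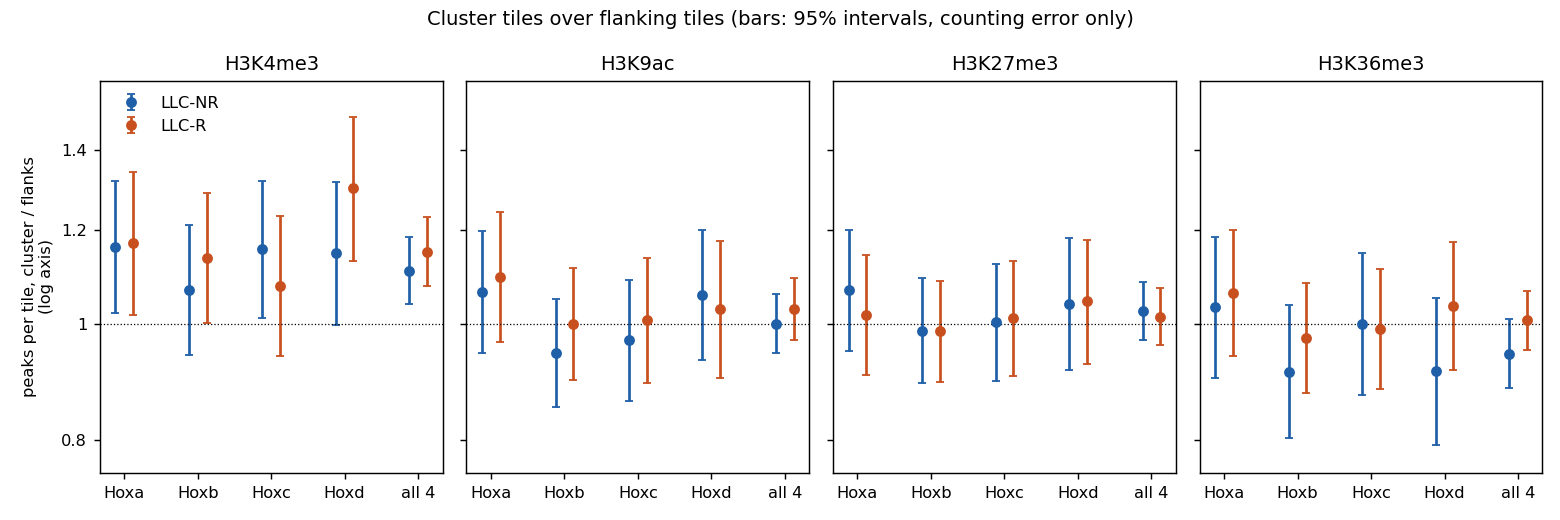
Ratio of peaks per 5-kb tile inside each cluster to the 100 kb on either side (y axis, log scale) for the 4 marks, with points for LLC-NR (blue) and LLC-R (orange) and bars for 95% intervals that cover counting error only. H3K4me3 lies above 1 in all clusters, and H3K27me3 between 0.99 and 1.07.

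The clusters differed from each other. Hoxa held 18.8 H3K4me3 peaks per tile in LLC-NR versus 16.0 in LLC-R, Hoxd 17.0 and 17.4, Hoxc 16.5 and 15.3, and Hoxb 13.9 and 14.3. The ratio to the flanks ran from 1.07 (0.94 to 1.21) in Hoxb to 1.16 (1.02 to 1.32) in Hoxa in LLC-NR, and from 1.08 (0.94 to 1.23) in Hoxc to 1.30 (1.13 to 1.49) in Hoxd in LLC-R. The intervals of the 4 clusters overlap.

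Hoxb is long because Hoxb13 lies far from Hoxb9. The 14 tiles between them held 12.4 and 13.1 H3K4me3 peaks, below the 13.03 of the Hoxb flanks in LLC-NR and above their 12.55 in LLC-R. H3K27me3 in this interval numbered 20 and 21.1 per tile and H3K36me3 11.4 and 17.7.

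In Hoxd, H3K4me3 and H3K36me3 ran opposite to each other. The 7 posterior tiles (Hoxd13 to Hoxd9) held 19.3 H3K4me3 and 13 H3K36me3 peaks per tile in LLC-NR, and the 12 others 15.7 and 16.2. In LLC-R, H3K4me3 showed the same step, with 19.0 and 16.5, and H3K36me3 a smaller one, with 19.7 and 20.2. Over the 19 Hoxd tiles, Spearman's rho between the marks was -0.62 (LLC-NR) and -0.41 (LLC-R). Over the 21 tiles of Hoxa it was -0.30 and -0.03, and over the 98 tiles of all clusters 0.16 and 0.03.

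The tiles show where the course turned. In LLC-NR, the tile of Hoxd8 held 23 H3K4me3 and 11 H3K36me3 peaks, that of Hoxd3 22 and 11, and that of Hoxd4 12 and 21. The Hoxd4 tile had 43 CpG dinucleotides, against 271 in that of Hoxd8. This place was chosen after its values were seen.

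Peaks of separate libraries were compared by position. Of the 1588 LLC-NR H3K4me3 peaks in the clusters, 29.3% (27.1% to 31.7%) had a LLC-R peak centred within 20 bp, against 23.5% in the flanks and 20.6% over the genome. For H3K27me3 it was 44.3% (42.1% to 46.5%) of 2030 peaks, against 46.8% and 36.5%. Between marks the shares were as high. Of the H3K4me3 peaks of the clusters, 36.1% (LLC-NR) and 37.2% (LLC-R) had an H3K27me3 peak of the same line within 20 bp. In the flanks it was 39.1% and 40.2%, and over the genome 27.98% and 31.84%. This share between marks was thus above that of the genome but not higher inside the clusters than in their flanks. The share rises with the density of peaks, and LLC-R peaks numbered 3.10 per kb in the clusters and 2.14 over the genome for H3K4me3, and 4.35 and 3.45 for H3K27me3.

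LLC-R was compared with LLC-NR to see whether the family differed between the resistant and the sensitive line. Each library was scaled by its own mean over all promoters, since the libraries differ in how many peaks they hold, and a promoter was called when its scaled log2 ratio passed 0.5 in either direction. Over the 39 promoters, the log2 ratio was 0.03 (-0.26 to 0.31) for H3K4me3, 0.02 (-0.26 to 0.30) for H3K9ac, -0.24 (-0.50 to 0.02) for H3K27me3 and -0.01 (-0.32 to 0.31) for H3K36me3. All 4 intervals include 0, but they can be too wide, so no absence of a difference is read from them. Scaled by the uniquely mapped reads of the libraries instead, the ratios of H3K9ac, H3K27me3 and H3K36me3 were 0.67, -1.08 and -0.59, so the size of a shift common to all promoters depends on the scale.

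For H3K27me3, the number of peaks at Hox promoters hardly changed, with 249 in LLC-NR versus 252 in LLC-R. The mean over all promoters went from 4.56 to 5.46, which is what sets the scaled ratio below 0. In the tiles, which hold more peaks, the scaled ratio was -0.25 (-0.34 to -0.16) in the clusters and -0.24 (-0.31 to -0.17) in the flanks, with the genome means as the scale. The clusters and flanks started near the top of the range in LLC-NR, where the highest tile of the genome held 26 peaks. How far this ceiling shapes the ratio was not tested.

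At most 5 members passed the call for H3K4me3, H3K9ac or H3K27me3, and 18 did for H3K36me3. For H3K4me3, 4 of 39 were higher in LLC-R (11.5% of all promoters) and 1 lower (10.5%). For H3K9ac it was 1 higher (6.34%) and 2 lower (8.27%), and for H3K27me3 0 higher (15.4%) and 2 lower (6.73%). Hox promoters already held 5 to 8 H3K27me3 peaks in LLC-NR, and no promoter of the genome held more than 9 in LLC-R. A call of higher was therefore hardly within their reach, and the 0 is not read as a trait of the members. For H3K36me3, 10 were higher (23.3%) and 8 lower (18.0%).

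The largest difference in H3K4me3 was at Hoxa5, a gene needed for lung development. Its promoter held 8 H3K4me3 peaks in LLC-NR versus 3 in LLC-R, a scaled log2 ratio of -1.20. A fall of 5 peaks or more was seen in 34 promoters of 22228 (0.153%). In the 0.5 kb on each side of the TSS, the numbers were 6 and 2, and in the 2 kb on each side 18 and 13. H3K9ac at Hoxa5 was 6 and 5, H3K27me3 5 and 6 and H3K36me3 6 and 7, so the other marks differed by 1 peak each.

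Of the 11 members with more H3K4me3 peaks in LLC-R, the 4 past the call gained 2 peaks each. They were Hoxa3 (5 and 7), needed for the thymus and parathyroid, Hoxb1 (4 and 6), which acts in the hindbrain, Hoxd4 (2 and 4) and Hoxd11 (5 and 7), a limb gene. Of all promoters, 8.96% gained 2 or more. H3K9ac at Hoxb1 and Hoxd4 was lower, at 6 and 4 and at 8 and 5.

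H3K27me3 was lower in LLC-R at Hoxa7 (8 and 6 peaks, log2 ratio -0.63) and Hoxb5 (7 and 5, -0.69). Both also had more H3K36me3, with 2 and 6 peaks at Hoxa7 and 2 and 7 at Hoxb5. H3K9ac was lower at Hoxb4 (6 and 3), known for its role in blood stem cells, and at Hoxc8 (5 and 3), which acts in the thoracic region, and higher at Hoxc12 (5 and 7). At Hoxb4, H3K27me3 numbered 6 and 8 peaks, the only member with 2 peaks more.

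For H3K36me3, the members higher in LLC-R after scaling were Hoxa7, Hoxa13, Hoxb2, Hoxb4, Hoxb5, Hoxb6, Hoxd3, Hoxd8, Hoxd12 and Hoxd13. Those lower after scaling were Hoxa3, Hoxa4, Hoxa11, Hoxb1, Hoxb3, Hoxc4, Hoxc9 and Hoxc11. Of these, only Hoxa4 and Hoxb1 held fewer peaks in LLC-R. The other 6 held the same number in both lines, while the mean over all promoters went from 3.20 to 4.96. Before scaling, 31 of 39 held more H3K36me3 in LLC-R, as did 78.1% of all promoters. Hoxd13 went from 1 to 5 peaks, Hoxa4 from 4 to 3 and Hoxb1 from 6 to 5.

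Across a whole cluster, the scaled log2 ratio of H3K4me3 in Hoxa was -0.22 (-0.43 to -0.01), with the genome tiles as the scale. The flanks of Hoxa were at -0.23 (-0.4 to -0.06), and with tiles of HCP TSSs as the scale the ratio of the cluster was -0.11 (-0.33 to 0.10). Hoxb and Hoxd were at 0.04 each, with intervals from -0.14 to 0.22 and from -0.19 to 0.27.

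Another 11 genes have a TSS inside a cluster (5730596B20Rik, Gm53 and Gm14396) or within 100 kb of one, and these include Evx1 and Evx2, counted again below. Of the 11, 11 were at or above the mean of H3K27me3 in LLC-NR (56.6% of all promoters) and 9 in LLC-R (58.8%). In LLC-NR, 9 were bivalent (48.5% of all promoters), against 8 in LLC-R (53.1%). Other developmental genes carried the same marks, so bivalency by this rule is not particular to Hox genes. Of the Hox-linked and ParaHox genes (Evx1, Evx2, Gsx1, Pdx1 and Cdx2), 5 of 5 were bivalent in LLC-NR, with 6.0 H3K27me3 peaks on average, and 4 of 5 in LLC-R, with 6.4. Evx1, which lies next to Hoxa13, held 6 H3K4me3 peaks in LLC-NR versus 1 in LLC-R, a fall of 5 as at Hoxa5, and Evx2, next to Hoxd13, held 3 and 6.

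The TALE homeodomain cofactors of Hox proteins (Pbx, Meis and Pknox genes, n = 9) held less H3K27me3, with 4.78 and 5.78 peaks on average. Of these, 5 were bivalent and 4 active in LLC-NR, and 7 bivalent and 2 active in LLC-R. Meis1 held 6 and 7 H3K27me3 peaks, and Pknox1 3 and 4. Of 6 constitutively used genes, 2 were bivalent in each line, and they held 4.0 and 4.83 H3K27me3 peaks; at Actb there were 2 and 4.

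Markers of tissues and host cells were read by the same rule. All 5 lung epithelial markers were bivalent in both lines, with 6.2 and 6.6 H3K27me3 peaks, and the fibroblast markers held 6.5 and 6.75, so H3K27me3 at the level of the Hox promoters was found in other lists too. In LLC-NR, 4 of 5 leukocyte, 4 of 4 fibroblast and 3 of 4 endothelial markers were bivalent. H3K4me3 at the leukocyte markers was lower in LLC-R, at 3.8 against 5.0 peaks per promoter, at endothelial markers it was 4.25 against 5.0 and at fibroblast markers 5.75 against 5.5. The fewest H3K4me3 peaks at a marker were 1, at Cd3e of T cells in LLC-R, so no marker promoter was at 0. The part of host cells in the Hox values was not tested.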

How the data were processed

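H3K4me3, H3K9ac, H3K27me3 and H3K36me3 ChIP-seq of micrococcal nuclease-digested chromatin from LLC-NR and LLC-R isografts gave 8 libraries, 1 per line and mark. Reads were aligned by the authors to mm9 (Bowtie 0.12.7), those with a unique position were kept, and the authors called peaks of nucleosome width in each library with GeneTrack, whose settings are not given in the sources used here. The deposited files list the first and last base of each peak in bp, with no height or read number, and no input library was used here. Both bases were taken as part of the peak, which makes every peak 147 bp wide.

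Genes were pooled by symbol from GENCODE vM1 (22228 from 22367 records, of which 40 for 39 Hox genes). The TSS used by most transcripts was taken, and the upstream one for 17 members with a tie. The TSS of 6 members lies inside another Hox gene, and no Hox promoters overlap. A peak was counted where its midpoint lay. HCPs hold a 500-bp interval with at least 55% G+C and a CpG observed to expected ratio of at least 0.6, and LCPs none with a ratio of at least 0.4. Single promoters were compared as log2 ratios of scaled numbers with a pseudocount of 10% of the mean. Intervals are exact Poisson, Clopper-Pearson or conditional binomial intervals. For gene bodies, the Poisson interval of the summed peaks was scaled to the ratio of mean densities. With 1 library per group no test was possible, and no p-value was computed. The counting code was tested on simulated data under Python 3.11.15 with pandas 2.3.3, SciPy 1.17.1 and NumPy 2.4.6, and figures were drawn with Matplotlib 3.10.9.

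The members and gene lists were chosen with earlier results of these data known. The named genes are, in each cluster, the promoters with the most and the fewest H3K4me3 and H3K27me3 peaks over both lines, and every promoter past the log2 ratio of 0.5 in a mark. The values of 1 member, which stays in all counts and means, and 1 upstream sequence are not reported here. Alternatives were other promoter widths, TSSs, scalings, thresholds, tile and flank sizes and body regions.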

Additional observations from a re-analysis of the deposited data

How the results depend on the processing

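Of 144 values under alternatives, 136 stayed within the 95% interval or within 1.5 times the main count. Against HCPs, the H3K4me3 ratio of Hox promoters was 0.92 (LLC-NR) and 0.95 (LLC-R), and for the Hox HCPs alone, an alternative chosen after seeing the data, 0.98 in LLC-R. Scaled by uniquely mapped reads, the log2 ratio of LLC-R over LLC-NR was 0.67 for H3K9ac, -1.08 for H3K27me3 and -0.59 for H3K36me3. From 0.5 to 3 kb downstream of the TSS, the gene body ratio of H3K4me3 was 1.15 in both lines. With the most downstream TSS, also chosen after seeing the data, 36 (LLC-NR) and 28 members (LLC-R) were bivalent, where 42.8% and 44.4% of all promoters were. Tiles of low repeat content were not run. No paired analysis was possible because each line and mark has 1 library, and no library could be left out.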
